A study of Mus musculus with 20 samples.

Results

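The genes for 6 inhibitors of cyclin-dependent kinases (CDKs) were examined for 4 histone marks in fetal and adult mouse hematopoietic stem cells (HSCs). They were Cdkn1a, Cdkn1b and Cdkn1c of the CIP/KIP family, and Cdkn2a, Cdkn2b and Cdkn2c of the INK4 family. Every peak that shared at least 1 bp with a fixed window around a gene was taken, in each of 8 lists of peaks from chromatin immunoprecipitation and sequencing (ChIP-seq). The 5 windows, in the mm9 build of the mouse genome, were chr17:29210001-29250000 for Cdkn1a, chr6:134860001-134885000 for Cdkn1b, chr7:150635001-150660000 for Cdkn1c, chr4:88915001-88965000 for the neighbours Cdkn2a and Cdkn2b, and chr4:109320001-109350000 for Cdkn2c. Together they spanned 170 kb and held 181 of the 218887 peaks on placed chromosomes. The windows were set by gene position and by no measured value, though with earlier results of these data known.

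All mice were of the strain B6129SF1, and no genetic change or treatment is given in the labels. Fetal HSCs came from liver at embryonic day 14.5, and adult HSCs from bone marrow of mice aged 6 to 8 weeks. At both stages the cells were sorted as Lin-Sca1+cKit+CD135-, a gate that also admits multipotent progenitors, and 50000 cells went into each immunoprecipitation. The labels describe 20 samples in 10 groups of 2 replicates, made up of the 4 marks and an input at each stage. The lists are named as combined, 1 per mark and stage, so the values have no replicate error and no test. A stage difference cannot be told apart from a difference between libraries, depths or peak calls. Whether replicates came from separate animals, and the depth of each library, are not given in the sources used here. The sort markers were not checked, because gene positions in mm9 were not used here.

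CIP/KIP proteins bind and inhibit complexes of cyclins with CDKs across the cell cycle. INK4 proteins bind CDK4 and CDK6 and keep D-type cyclins from activating them, which holds the retinoblastoma protein in its repressive state. Most adult HSCs are quiescent, while HSCs of the fetal liver divide actively, and several of these inhibitors are known to limit HSC division. Of the marks, H3K4me3 lies at starts of transcription that are active or poised, and H3K27ac at promoters and enhancers in use. H3K4me1 marks enhancers and the flanks of promoters, and H3K27me3 marks chromatin held silent by Polycomb. A start that carries both H3K4me3 and H3K27me3 is called bivalent. In peak lists such an overlap does not show that both marks sat on the same allele or in the same cell.

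The sequences at the gene starts show how different these genes are in CG dinucleotides, which H3K4me3 and Polycomb complexes are known to favour. RefSeq promoters of the GRCm38.p6 build, from 250 bases before to 50 bases after a start, were matched by symbol for 5 of the 6 genes, with 8 starts between them. The Cdkn1c promoter was not matched. The 250 bases before 5 of the 8 starts are given here, because their genes show the contrast between acetylated, bivalent and stage-differing chromatin. They run from 5′ to 3′ on the strand of the gene, with each CG in capitals. Starts are numbered along the direction of transcription, so that Cdkn2a start 1 is the Arf start and Cdkn2a start 2 the Ink4a start. The positions are of GRCm38.p6 and are not to be compared with the mm9 positions of the peaks.
Cdkn1b start 1 (plus strand, chr6:134920151-134920400): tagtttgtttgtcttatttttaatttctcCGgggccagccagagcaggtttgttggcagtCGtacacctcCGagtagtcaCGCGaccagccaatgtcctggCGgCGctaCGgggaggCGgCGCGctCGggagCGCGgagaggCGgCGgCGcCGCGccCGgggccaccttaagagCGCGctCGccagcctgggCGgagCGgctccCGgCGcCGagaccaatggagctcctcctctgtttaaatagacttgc
Cdkn2a start 1 (minus strand, chr4:89294620-89294869): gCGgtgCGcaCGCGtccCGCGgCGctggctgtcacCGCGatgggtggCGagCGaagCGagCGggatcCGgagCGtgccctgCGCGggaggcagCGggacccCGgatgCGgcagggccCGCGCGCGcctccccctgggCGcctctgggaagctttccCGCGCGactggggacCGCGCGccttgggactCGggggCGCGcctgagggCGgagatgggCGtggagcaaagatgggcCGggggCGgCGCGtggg
Cdkn2a start 2 (minus strand, chr4:89282193-89282442): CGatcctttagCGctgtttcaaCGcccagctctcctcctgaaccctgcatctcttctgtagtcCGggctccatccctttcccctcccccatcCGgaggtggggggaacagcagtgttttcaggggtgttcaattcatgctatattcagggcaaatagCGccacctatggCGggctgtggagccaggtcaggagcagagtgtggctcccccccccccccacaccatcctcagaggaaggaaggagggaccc
Cdkn2b start 1 (minus strand, chr4:89311033-89311282): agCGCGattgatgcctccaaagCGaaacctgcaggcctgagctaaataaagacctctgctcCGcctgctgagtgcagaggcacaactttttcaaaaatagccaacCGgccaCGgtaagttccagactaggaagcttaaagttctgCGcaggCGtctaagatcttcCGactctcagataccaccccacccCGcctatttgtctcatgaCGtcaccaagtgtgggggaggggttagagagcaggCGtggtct
Cdkn2c start 1 (minus strand, chr4:109666757-109667006): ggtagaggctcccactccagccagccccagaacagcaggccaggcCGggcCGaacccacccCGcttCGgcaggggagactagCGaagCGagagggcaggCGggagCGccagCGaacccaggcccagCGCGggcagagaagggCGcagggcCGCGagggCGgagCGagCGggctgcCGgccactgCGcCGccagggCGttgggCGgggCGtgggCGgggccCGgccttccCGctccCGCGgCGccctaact

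Over the full 300 bases, Cdkn2a start 1 had 45 CG dinucleotides, more than 98.1% of the 32851 promoters in the table, whose median was 7.00. Cdkn2c start 1 had 33, more than 91.4% of promoters, and Cdkn1b had 30, more than 88.3%. These 3 starts stood in the CG-rich tail. Cdkn1a start 2 followed with 23, Cdkn2b with 18 and Cdkn2a start 2 with 12, more than 78.5%, 70.3% and 60.4% of promoters. Cdkn2c start 2 had 8 and Cdkn1a start 1 had 2, near or under the median. The 2 starts of Cdkn2a therefore differed widely in CG content although they serve the same gene, and so did those of Cdkn1a and of Cdkn2c.

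**Figure D1:**
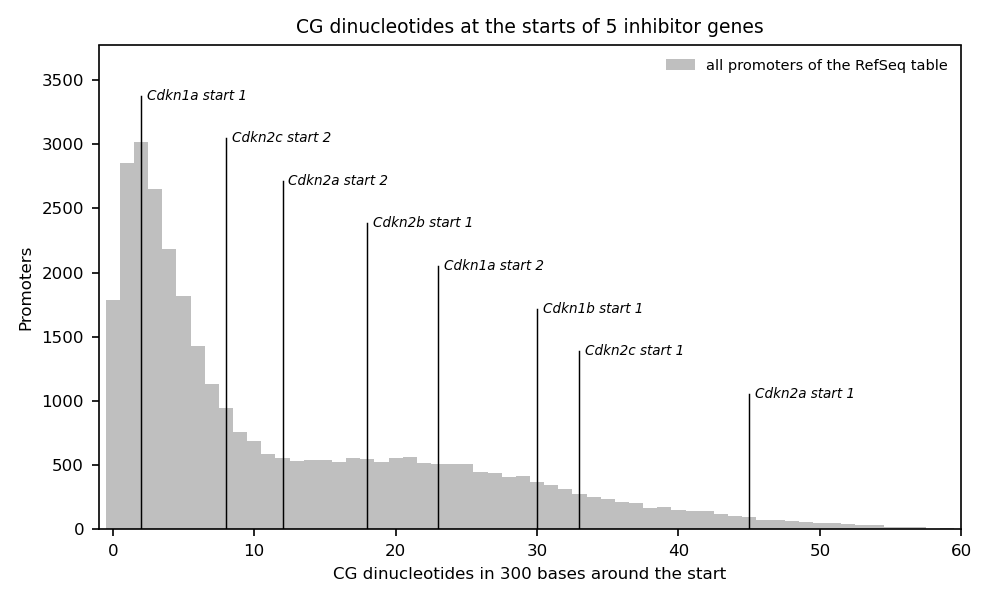
CG dinucleotides in 300 bases around a gene start (horizontal axis) against the number of promoters of the RefSeq table (vertical axis, grey bars), with the 8 starts of 5 CDK inhibitor genes as black lines whose heights only separate the labels. Cdkn2a start 1 lay farthest to the right with 45, and Cdkn1a start 1 farthest to the left with 2.

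Motifs were searched on both strands of the 300 bases. The GC box GGGCGG was found 4 times at Cdkn2c start 1, 3 times at Cdkn2a start 1, 2 times at Cdkn1a start 2, and 1 time each at Cdkn1b, Cdkn2a start 2 and Cdkn2b, and 35.7% of all promoters held it. CCAAT was found 3 times at Cdkn1b and 1 time each at Cdkn2a start 2 and Cdkn2c start 2, against a share of 37.4% of all promoters. TATAAA was found at none of the 8 starts, and 13.6% of all promoters held it. Cdkn1a is the classical target of the tumour suppressor p53, and a 20-base p53 site with 1 mismatch was found before Cdkn1a start 1, ending 32 bases before the start. Only 29 of all promoters, 0.0883%, held such a site under this search, which was chosen after the sequence had been seen. The stretch around it is shown with the site in capitals.
Cdkn1a start 1, bases around the p53 site (plus strand, chr17:29090918-29090957 in GRCm38.p6): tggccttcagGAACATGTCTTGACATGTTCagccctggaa

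Across the 5 windows, whether any peak was listed differed between genes for H3K27ac and H3K27me3, and for H3K4me1 in adult HSCs. H3K4me3 peaks lay in all 5 windows at both stages, where 16.1% of 30-kb tiles of the genome held a fetal peak and 16.0% an adult one. H3K27ac peaks lay in 4 windows in fetal and 3 in adult HSCs, against 18.8% and 15.2% of tiles. H3K27me3 peaks lay in the same 4 windows at both stages, all but Cdkn1b, against 9.35% and 5.81% of tiles. H3K4me1 peaks lay in all 5 windows in fetal and in 2 in adult HSCs, against 29.0% and 7.60% of tiles. The windows were placed on genes and differ in length from 25 to 50 kb, so the tile shares are a background and not a matched comparison.

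Tiles that held H3K4me3 are the closer background, since every window held it. Of such tiles, 79.0% in fetal and 78.5% in adult HSCs also held H3K27ac, and 4 and 3 of the 5 windows did. The share with H3K27me3 was 29.9% in fetal and 18.6% in adult tiles, while 4 of 5 windows held H3K27me3 at both stages. For H3K4me1 the share was 88.9% in fetal tiles, where all 5 windows held it, and 26.1% in adult tiles, where 2 windows did. With 5 windows, the H3K27ac and H3K4me1 counts sit close to these shares, and the H3K27me3 count sits above them.

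The length covered by peaks showed which marks differed most between the lists of the 2 stages. H3K4me3 covered 25647 bp of the windows in fetal HSCs and 28059 bp in adult HSCs, or 15.1% and 16.5%. H3K27ac covered 28656 and 27192 bp, or 16.9% and 16.0%. Both marks were close to level between stages over the windows together, but not window by window, as described for each gene. H3K27me3 covered 67147 bp in fetal HSCs in 6 peaks, and 26405 bp in adult HSCs in 71 peaks. H3K4me1 covered 23635 bp in 49 fetal peaks and 520 bp in 2 adult peaks.

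**Figure D2:**
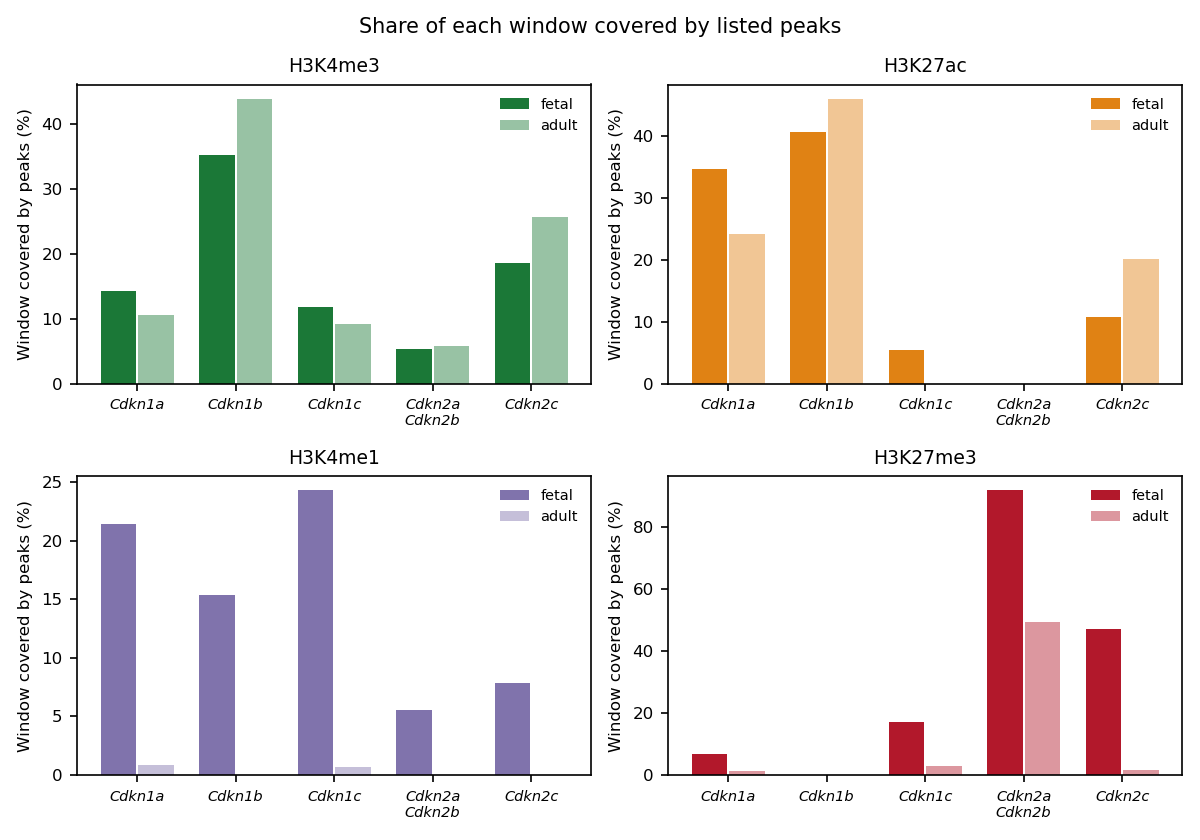
Percent of each window covered by listed peaks (vertical axis, each panel with its own scale from 0) for 4 histone marks, with 1 bar per stage and window and no error bars because each list is a single combined list. Cdkn1b had the tallest H3K4me3 and H3K27ac bars and no H3K27me3, and the Cdkn2a and Cdkn2b window had 91.9% fetal and 49.3% adult H3K27me3 cover and no H3K27ac.

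These differences stand beside differences of the whole lists. Median widths over all peaks were 1736 bp fetal and 1810 bp adult for H3K4me3, 1857 and 1634 bp for H3K27ac, 429.0 and 193.0 bp for H3K4me1, and 1406 and 278.0 bp for H3K27me3. The H3K4me1 list held 92784 fetal and 12517 adult peaks. The adult H3K27me3 list was thus made of short pieces throughout, and the adult H3K4me1 list was short and sparse throughout. Their part in the values at the inhibitor genes was not tested. Scores are given as the authors' peak caller wrote them, in a unit that is not stated. The score was at least 50 in every list, and values piled up at 3100, so it is used to describe and rank peaks within a list. Alternatives that keep the better-scoring peaks of each list, or equal numbers from both stages, also rest on it.

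**Figure D3:**
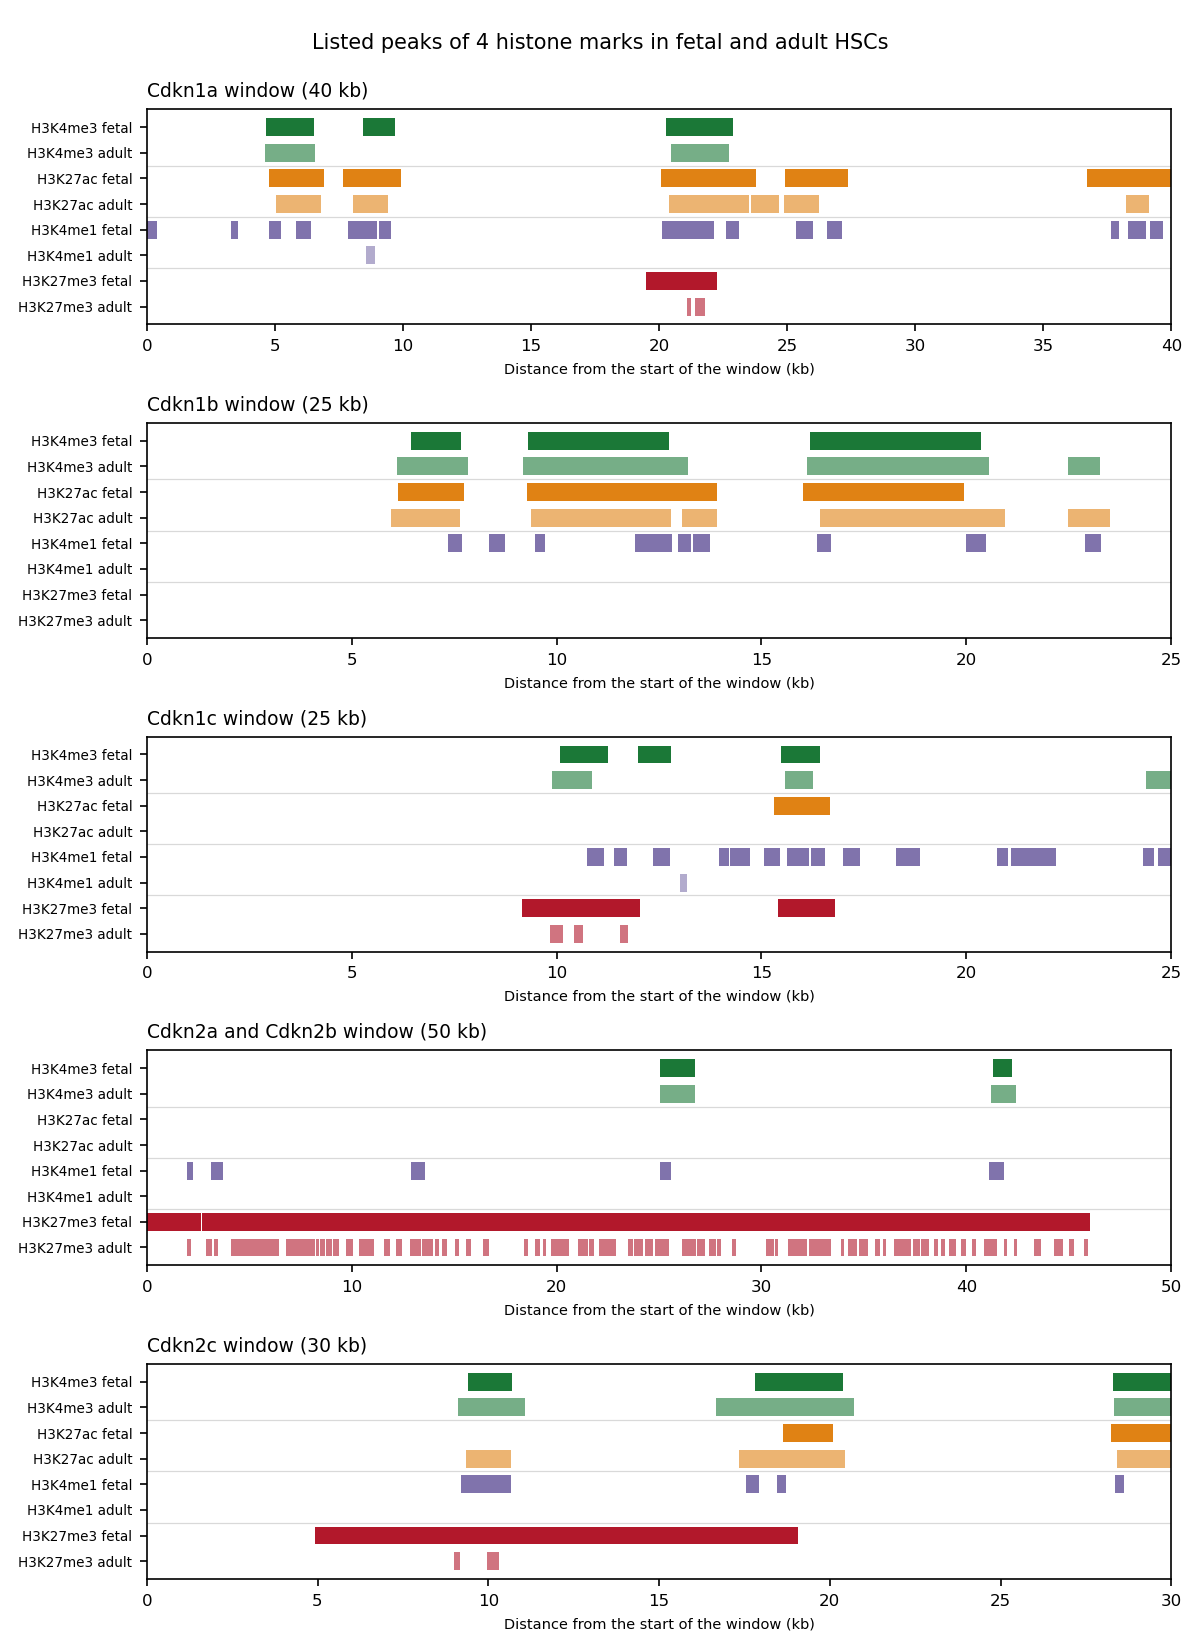
Listed peaks of 4 histone marks in the 5 windows, drawn to scale as bars against the distance from the start of the window in kb (horizontal axis, peaks cut at window ends), with fetal in dark and adult in light colour. In the Cdkn2a and Cdkn2b window a fetal H3K27me3 peak of 43306 bp stands above 63 short adult pieces, and the Cdkn1b window has no H3K27me3 at either stage.

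Peaks of H3K4me3 and H3K27ac at the inhibitor genes were mostly listed at both stages. Of 14 fetal H3K4me3 peaks, 12 overlapped an adult H3K4me3 peak, against 91.0% over the fetal list. In adult HSCs 12 of 14 overlapped a fetal peak, against 92.8%. The H3K4me3 peaks without a counterpart lay in the Cdkn1a window (1 fetal), the Cdkn1b window (1 adult) and the Cdkn1c window (1 fetal and 1 adult). For H3K27ac, 10 of 11 fetal peaks overlapped an adult peak, against 65.3%, and 12 of 14 adult peaks overlapped a fetal one, against 88.6%. The single fetal H3K27ac peak without an adult counterpart was that of Cdkn1c.

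Most fetal H3K27me3 peaks of the windows met at least 1 adult piece, and the adult list held many more pieces. All 71 adult H3K27me3 pieces overlapped a fetal H3K27me3 peak, against 92.4% of the adult list. Of these pieces, 64 lay in the Cdkn2a and Cdkn2b window, and with pieces joined within 1 kb the windows held 6. The 71 are therefore not separate observations. By at least 1 bp, 5 of 6 fetal peaks overlapped an adult piece, against 35.5% of the fetal list. No adult H3K27me3 piece in the windows lay outside a fetal peak. Adult cover of the 6 fetal peaks ran from 0 to 56.4%, and 1 was covered over at least 50% of its length. The 6 were 1389 to 43306 bp wide, against a median of 1406 bp in the fetal list. The share of 35.5% is therefore not a background matched by width. By number of peaks, H3K4me1 was the mark with little overlap. Of the 49 fetal H3K4me1 peaks, 1 overlapped an adult peak, or 2.04%, against 9.22% of the fetal list. Of the 2 adult H3K4me1 peaks, 1 overlapped a fetal peak, against 87.4% of the adult list.

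The marks found on H3K4me3 peaks sorted the genes. In fetal HSCs, 9 of the 14 H3K4me3 peaks overlapped H3K27ac, against 74.2% of all fetal H3K4me3 peaks. Of the same 14, 8 overlapped H3K27me3, against 22.3%, and 14 overlapped H3K4me1, against 84.9%. In adult HSCs, 9 of 14 overlapped H3K27ac, against 75.7%, 5 overlapped H3K27me3, against 12.9%, and none overlapped H3K4me1, against 10.1%. H3K4me3 with H3K27ac and no H3K27me3 was found at 6 fetal and 7 adult peaks, and H3K4me3 with H3K27me3 and no H3K27ac at 5 fetal and 3 adult peaks. All Cdkn1b peaks were in the first class at both stages, and all Cdkn2a and Cdkn2b peaks in the second class at both stages. In fetal HSCs Cdkn1a, Cdkn1c and Cdkn2c lay between them, each with 1 H3K4me3 peak that overlapped both H3K27ac and H3K27me3. In adult HSCs 2 peaks overlapped both, 1 at Cdkn1a and 1 at Cdkn2c, and 2 peaks of Cdkn1c overlapped neither.

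Cdkn1b encodes Kip1, the inhibitor of CDK2 complexes that accumulates in resting cells. Its window carried broad H3K4me3 and H3K27ac at both stages and no listed H3K27me3 at either. The 3 fetal H3K4me3 peaks were 1205, 3420 and 4170 bp wide, with scores of 1065.32, 3100 and 3100. In adult HSCs the same 3 places held peaks of 1715, 4043 and 4431 bp, with scores of 1301.82, 3100 and 3100. Each adult peak was wider than its fetal partner, by ratios of 1.42, 1.18 and 1.06. Over 15164 H3K4me3 peaks matched 1 to 1 between stages, 56.9% were wider in the adult list. The 3 ratios were exceeded by 4.31%, 15.0% and 35.6% of such pairs.

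The widest H3K4me3 peak of Cdkn1b, at chr6:134876194-134880363 in fetal and chr6:134876117-134880547 in adult HSCs, was wider than 97.7% of the fetal and 98.2% of the adult H3K4me3 list. H3K4me3 covered 35.2% of the Cdkn1b window in fetal and 43.9% in adult HSCs. Among peaks that reached the median score of their list, fetal minus adult cover went from -2171 to -884 bp. Of 105524 tiles of the same length, 48 had as much fetal H3K4me3 or more and 10 had as much adult H3K4me3 or more. The Cdkn1b window was thus more densely covered by H3K4me3 than nearly all tiles of its length at both stages. It was placed on the gene, while the tiles were cut on a fixed grid. The start printed above for Cdkn1b is likewise rich in CG. The next gene at higher coordinates is Lockd, a long noncoding RNA gene, and which start each peak covers was not determined.

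H3K27ac followed H3K4me3 at Cdkn1b. Fetal peaks were 1620, 4631 and 3926 bp wide with scores of 277.56, 3100 and 2851.02. Adult peaks at these places were 1686 bp (score 267.25), then a pair of 3412 and 870 bp (2434.39 and 66.31) under the fetal peak of 4631 bp, then 4514 bp (2367.08). H3K27ac covered 40.7% of the window in fetal and 46.0% in adult HSCs. Among peaks that reached the median score of their list, the order turned, and fetal cover exceeded adult cover by 631 bp. The larger adult H3K27ac cover at Cdkn1b therefore rested on adult peaks that scored under that median.

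One place in the Cdkn1b window carried promoter-type marks in the adult lists alone. There an adult H3K4me3 peak of 777 bp (score 59.81, chr6:134882481-134883257) lay with an adult H3K27ac peak of 1024 bp (score 99.16). Neither mark had a fetal peak there, where a fetal H3K4me1 peak of 392 bp was listed at chr6:134882902-134883293. Both adult peaks scored low, above 2.63% of the H3K4me3 list and 21.5% of the H3K27ac list. Besides this, the window held 8 other fetal H3K4me1 peaks and no adult one.

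Cdkn1a encodes Cip1, which p53 induces after DNA damage and which restrains the cycling of stressed stem cells. Its window was acetylated at both stages and carried an H3K27me3 peak over its main H3K4me3 peak in fetal HSCs. The main H3K4me3 peak was 2594 bp wide with a score of 2375.40 in fetal HSCs (chr17:29230278-29232871), and 2275 bp with 1632.71 in adult HSCs (chr17:29230450-29232724). A second H3K4me3 peak was 1851 bp wide (1173.91) in fetal and 1914 bp (1191.15) in adult HSCs, centred 16.0 kb lower than the main one in the adult list. The main peak was narrower in the adult list, at a ratio of 0.877, and the second was level, at 1.03.

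The fetal H3K27me3 peak of Cdkn1a, at chr17:29229504-29232268, was 2765 bp wide with a score of 865.74. It covered 1991 bp, or 76.8%, of the main H3K4me3 peak, which H3K27ac covered in full. Adult H3K27me3 there came to 2 pieces of 160 and 380 bp with scores of 50.44 and 84.23, which covered 19.5% of the fetal peak. Over all 7792 fetal H3K27me3 peaks of 1 to 5 kb the median adult cover was 0 and the upper quartile 15.4%. The Cdkn1a peak was therefore more covered in the adult list than most of its width class, while the adult pieces scored above 1.19% and 45.8% of the adult list. The main Cdkn1a peak was 1 of 2 adult H3K4me3 peaks in the windows that overlapped both H3K27ac and H3K27me3.

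Each fetal H3K27ac peak at Cdkn1a was wider than any adult peak it overlapped within the window. The fetal peaks were 2140, 2277, 3707, 2451 and 6592 bp wide, with scores of 368.85, 661.37, 2928.27, 300.43 and 1065.54. The 6 adult peaks were 1737, 1370, 3117, 1105, 1392 and 932 bp wide, with scores of 222.00, 68.53, 1722.31, 64.57, 250.42 and 104.73. Cover of the window was 34.7% in fetal and 24.1% in adult HSCs, and H3K4me3 cover was 14.2% and 10.5%. Among peaks that reached the median score of their list, the fetal excess went from 4218 to 10754 bp for H3K27ac and from 1483 to 319 bp for H3K4me3. For comparison, the median adult to fetal width ratio over 14251 H3K27ac peaks matched 1 to 1 was 0.865, and the 3 matched pairs of Cdkn1a had 0.812, 0.602 and 0.568. All 3 lay under the median and within the 5th to 95th percentile of 0.426 to 1.35.

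The widest H3K27ac peak of Cdkn1a stood at the upper end of its window, at chr17:29246705-29253296. It ran past the window end, on the side of the next gene Rab44, and ranked 294 by width in the fetal list. The adult peak within the window at this place was 932 bp wide, with a score of 104.73, and adult H3K27ac covered 3924 of the 6592 bp, with what lay past the window counted in. Fetal H3K4me3 covered 1117 bp of this H3K27ac peak, all of it past the window end, and within the window no H3K4me3 peak was listed there at either stage. Within the window, 4 fetal H3K4me1 peaks of 229 to 712 bp lay under the fetal H3K27ac peak. Which gene this stretch serves was not determined.

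A second such place lay in the lower part of the Cdkn1a window, on the side of Trp53cor1, the gene of a p53-induced long noncoding RNA. Here fetal HSCs had an H3K4me3 peak of 1227 bp (score 130.04, chr17:29218462-29219688) that the adult list lacked. Over it lay a fetal H3K27ac peak of 2277 bp and a fetal H3K4me1 peak of 1154 bp with a score of 869.27, above 96.6% of the fetal H3K4me1 list. In adult HSCs an H3K27ac peak of 1370 bp (68.53) remained listed at the place, with an H3K4me1 peak of 348 bp (67.70, chr17:29218546-29218893). This was the single place in the 5 windows with an H3K4me1 peak at both stages. Of the 16 fetal H3K4me1 peaks of Cdkn1a, 14 lay on H3K27ac, against 41.4% of the fetal list, and 7 of these lay off H3K4me3.

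Cdkn1c encodes Kip2, an inhibitor linked to HSC quiescence whose gene is imprinted and expressed from the maternal allele. The lists do not separate the parental alleles. H3K4me3 in its window was weak at both stages, and acetylation was listed in fetal HSCs alone. The 3 fetal H3K4me3 peaks were 1175, 821 and 944 bp wide with scores of 148.78, 101.30 and 104.99. The 3 adult peaks were 955, 698 and 1001 bp wide with scores of 53.65, 53.09 and 69.43. None of the 6 scored above more than 15.6% of its list. The acetylation was 1 fetal peak with a score above 24.3% of its list. Among peaks that reached the median score of their list, neither H3K4me3 nor H3K27ac was left in the Cdkn1c window at either stage, and the stage difference in both was 0 bp.

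The first and the third fetal H3K4me3 peaks of Cdkn1c had narrower adult partners, at width ratios of 0.813 and 0.739. Over 15164 H3K4me3 peaks matched 1 to 1, the median ratio was 1.02 and the 5th to 95th percentile 0.821 to 1.39. Both ratios lay under that range, with 95.5% and 97.9% of pairs above them. The third adult peak, at chr7:150659379-150660379, ran past the upper window end and had no fetal H3K4me3 partner, though fetal H3K4me1 peaks of 272 and 738 bp were listed there. The adult scores at Cdkn1c lay close to 50, the lowest score listed.

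H3K27me3 lay over the fetal H3K4me3 peaks of Cdkn1c. A peak of 2876 bp (score 892.46, chr7:150644149-150647024) covered the first H3K4me3 peak in full and 45 bp of the second. A peak of 1389 bp (167.27, chr7:150650395-150651783) covered the third in full, and here a fetal H3K27ac peak of 1356 bp (113.20) was also listed. In adult HSCs 3 H3K27me3 pieces of 315, 239 and 176 bp covered 25.4% of the first fetal peak, and none lay on the second. The third H3K4me3 peak, where fetal HSCs had all 4 marks, thus had H3K4me3 alone in the adult lists. Fetal H3K4me1 came to 15 peaks of 247 to 738 bp, of which 9 lay on none of the other 3 marks, and the adult list had 1 peak of 172 bp (54.35). With equal numbers of top-scoring peaks from both stages no fetal H3K4me1 peak was left in this window, and adult cover exceeded fetal cover by 172 bp.

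The Cdkn2a and Cdkn2b window was the most densely Polycomb-marked of the set. Cdkn2a encodes Ink4a and, from its other start, Arf, which stabilises p53; Cdkn2b encodes Ink4b. Repression of this locus by the Polycomb protein Bmi1 is known to be needed for HSC self-renewal. In the gene order of RefSeq, Cdkn2a lies at lower and Cdkn2b at higher coordinates, with the noncoding gene Gm12610 between them. A single fetal H3K27me3 peak of 43306 bp, at chr4:88917712-88961017 with a score of 1177.20, ranked 7 by width among the 14823 fetal H3K27me3 peaks. A peak of 2906 bp (519.22) adjoined it at the lower end, and together they covered 91.9% of the window.

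In adult HSCs the same window held 64 H3K27me3 pieces of 142 to 1594 bp, with a median of 284.0 bp. They covered 49.3% of the window, and 63 of them lay within the 43306-bp fetal peak and covered 56.4% of it. The pieces spread along the whole fetal peak, from position 88917895 to position 88960924. Of the 62 gaps between them, 60 were at most 1 kb, and the 2 longer gaps measured 1698 and 1462 bp. Joined across 1 kb the pieces formed 3 stretches, and the excess of fetal over adult cover in the window went from 21328 to 5228 bp. The best-scoring piece was 1594 bp wide (703.35, chr4:88919860-88921453), above 97.6% of the adult list.

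H3K27me3 ran along the whole locus in both lists. In 5 steps of 10 kb from the lower end, fetal cover was 99.4%, 100.0%, 100.0%, 100.0% and 60.2%, and adult cover was 56.9%, 45.0%, 56.7%, 64.5% and 23.2%. The last step, which holds the upper H3K4me3 peak and the upper end of the domain, was the least covered at both stages. Of 52758 tiles of 50 kb, 14 had as much fetal H3K27me3 or more, and 14 had as much adult H3K27me3 or more. In each list, 0.0265% of tiles thus held as much as this window. The window was placed on the locus while the tiles were cut on a fixed grid, so this is a background and not a matched comparison. Among the 427 fetal H3K27me3 peaks of 10 kb or more, the median adult cover was 48.9%, with quartiles of 33.4% and 61.8%, and 65.6% of them had less than the Cdkn2a and Cdkn2b peak.

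Within this domain lay 2 H3K4me3 peaks at both stages, centred 15.9 kb apart. The lower one was 1703 bp wide (1248.83, chr4:88940039-88941741) in fetal and 1706 bp (1399.24, chr4:88940047-88941752) in adult HSCs. The upper one was 944 bp (180.52, chr4:88956305-88957248) in fetal and 1225 bp (354.99, chr4:88956187-88957411) in adult HSCs. The lower peak thus had the same width at both stages to within a few bases, and the upper was wider in the adult list at a ratio of 1.30. Which of the starts printed above each peak covers was not determined.

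Both H3K4me3 peaks were bivalent at both stages by overlap. The fetal ones lay fully within H3K27me3, as did 56.4% of the 3819 bivalent fetal peaks in the genome. The adult ones were covered by H3K27me3 over 64.2% and 48.1% of their length, beside a median of 46.5% over 2152 bivalent adult peaks. Both H3K4me3 peaks scored under the median of their list at both stages, which was 1627 in fetal and 1435 in adult HSCs. Among peaks that reached the median score of their list, no H3K4me3 was therefore left in this window at either stage. No H3K27ac peak was listed in the window at either stage. Fetal H3K4me1 came to 5 peaks of 259 to 705 bp, all on H3K27me3 and 2 of them on the H3K4me3 peaks, and the adult list had none.

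Cdkn2c encodes Ink4c, whose loss is known to expand HSC self-renewal. In its window H3K27me3 was wide in the fetal list and nearly unlisted in the adult list, while H3K4me3 and H3K27ac were wider in the adult list. In fetal HSCs a single H3K27me3 peak of 14159 bp with a score of 3100 spanned chr4:109324918-109339076, 47.2% of the window. In adult HSCs 2 pieces of 156 and 349 bp were listed, with scores of 53.52 and 67.46, and they covered 1.68% of the window. They covered 3.57% of the fetal peak, and only 4 of the 427 fetal peaks of 10 kb or more, 0.937%, had less adult cover. The wide fetal H3K27me3 peaks of the INK4 genes thus differed, with 56.4% adult cover at Cdkn2a and Cdkn2b and 3.57% at Cdkn2c. They also differed in width, at 43306 and 14159 bp, and in score, at 1177.20 and 3100. The cause of the difference in adult cover was not tested.

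**Figure D4:**
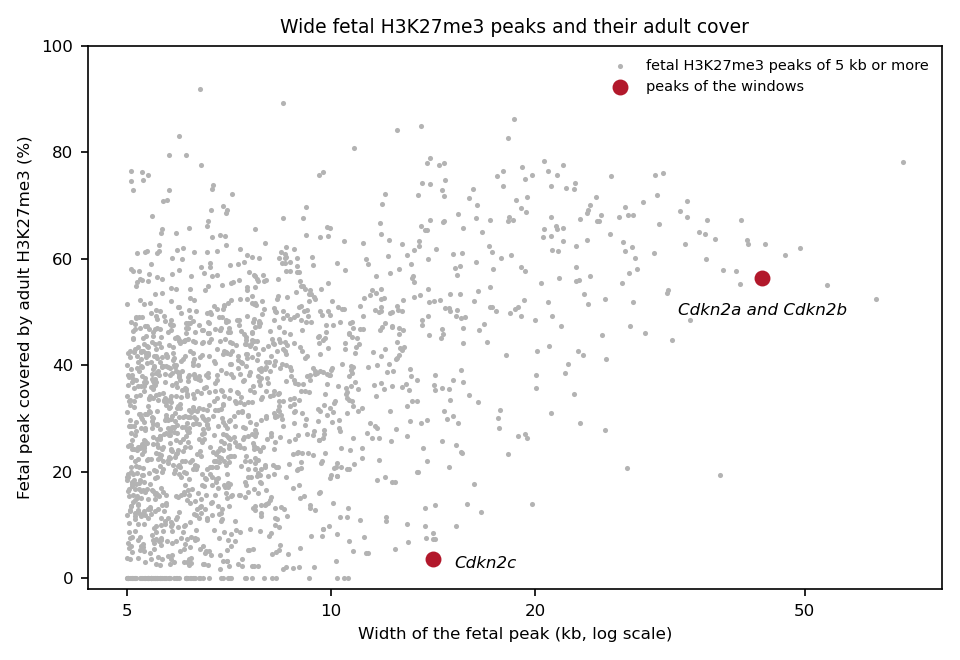
Width of each fetal H3K27me3 peak of 5 kb or more (horizontal axis, kb, log scale) against the percent of it covered by adult H3K27me3 (vertical axis), with all such peaks in grey and those of the windows in red. The Cdkn2c peak lay near the floor at 3.57%, and the Cdkn2a and Cdkn2b peak lay among others of its width at 56.4%.

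H3K4me3 and H3K27ac peaks of the Cdkn2c window that touched the fetal H3K27me3 peak were wider in the adult list. The next gene at lower coordinates is 9630013D21Rik, and which start each peak covers was not determined. The H3K4me3 peak within the fetal domain was 1292 bp wide (188.25, chr4:109329393-109330684) in fetal and 1955 bp (1071.68, chr4:109329114-109331068) in adult HSCs. The next one, across the upper edge of the domain, was 2586 bp (3100, chr4:109337808-109340393) in fetal and 4052 bp (3100, chr4:109336662-109340713) in adult HSCs. Their ratios of 1.51 and 1.57 were exceeded by 2.93% and 2.30% of all H3K4me3 pairs. The adult peak of 4052 bp was wider than 97.4% of the adult list, the fetal one of 2586 bp wider than 82.5% of the fetal list.

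Acetylation at Cdkn2c differed in the same direction. Across the upper edge of the fetal domain, H3K27ac was 1489 bp wide (223.10, chr4:109338620-109340108) in fetal and 3113 bp (1404.26, chr4:109337333-109340445) in adult HSCs. This ratio of 2.09 was exceeded by 0.512% of the H3K27ac pairs. Within the fetal domain an adult H3K27ac peak of 1326 bp (105.88, chr4:109329354-109330679) was listed over the first H3K4me3 peak, where fetal HSCs had H3K4me3, H3K4me1 and H3K27me3 but no H3K27ac. Cover of the window was 10.8% in fetal and 20.1% in adult HSCs for H3K27ac, and 18.6% and 25.7% for H3K4me3.

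The last H3K4me3 peak at Cdkn2c, at the upper window end on the side of the next gene Faf1, was near level between stages. It was 2223 bp wide in fetal and 2185 bp in adult HSCs, at a ratio of 0.983, with a score of 3100 in both. Its H3K27ac peak was 2118 bp (912.20) in fetal and 1809 bp (876.76) in adult HSCs, at 0.854, beside a median of 0.865 over all pairs. No H3K27me3 lay on it at either stage. In this window the pairs wider in the adult list were those that overlapped the fetal H3K27me3 domain. These were few pairs, and a link between width and the domain was not tested. In the other windows, H3K4me3 pairs under fetal H3K27me3 did not all go the same way. They were narrower in the adult list at Cdkn1a, at a ratio of 0.877, and at Cdkn1c, at 0.813 and 0.739. At Cdkn2a and Cdkn2b the lower pair was level, with 1703 bp fetal and 1706 bp adult. The upper pair there was wider in the adult list, at a ratio of 1.30. The pairs of Cdkn1b, which had no H3K27me3, had ratios of 1.42, 1.18 and 1.06.

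Adult H3K27me3 at Cdkn2c touched 1 of the 3 adult H3K4me3 peaks. Adult H3K27me3 covered 401 of the 1955 bp of the first adult H3K4me3 peak, or 20.5%, and none of the second. In fetal HSCs H3K27me3 covered all of the first and 49.1% of the second. Fetal H3K4me1 came to 4 peaks, all on H3K4me3 and the widest of 1449 bp with a score of 512.00, and the adult list had none. The excess of fetal H3K27me3 cover at Cdkn2c kept its direction, from 12853 to 14159 bp, in the 3 alternatives tried. Both low-scoring adult pieces fell out of the alternatives that select by score, so these could not have turned that direction. The excess of adult H3K4me3 and H3K27ac also kept its direction in the 3 alternatives.

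Set side by side, the matched peaks of the inhibitor genes were not all wider at the same stage. Of 12 H3K4me3 pairs, 8 had an adult width above the fetal one by any amount and 4 did not, against 56.9% of all H3K4me3 pairs. The 8 include 2 near-level pairs, of 1703 and 1706 bp at Cdkn2a and Cdkn2b and of 1851 and 1914 bp at Cdkn1a. The ratios ran from 0.739 at Cdkn1c to 1.57 at Cdkn2c. Of 7 H3K27ac pairs, 3 were wider in the adult list, namely 2 at Cdkn1b, at 1.04 and 1.15, and 1 at Cdkn2c, and 4 were not, against 25.1% of all H3K27ac pairs that were wider in the adult list. With so few pairs these counts do not set the inhibitor genes apart. Cdkn1b and Cdkn2c held the wider adult peaks and Cdkn1a and Cdkn1c the narrower ones for H3K4me3, apart from near-level pairs at Cdkn1a and at the upper end of the Cdkn2c window. Cdkn2a and Cdkn2b had 1 level pair, of 1703 and 1706 bp, and 1 wider adult peak, at 1.30.

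**Figure D5:**
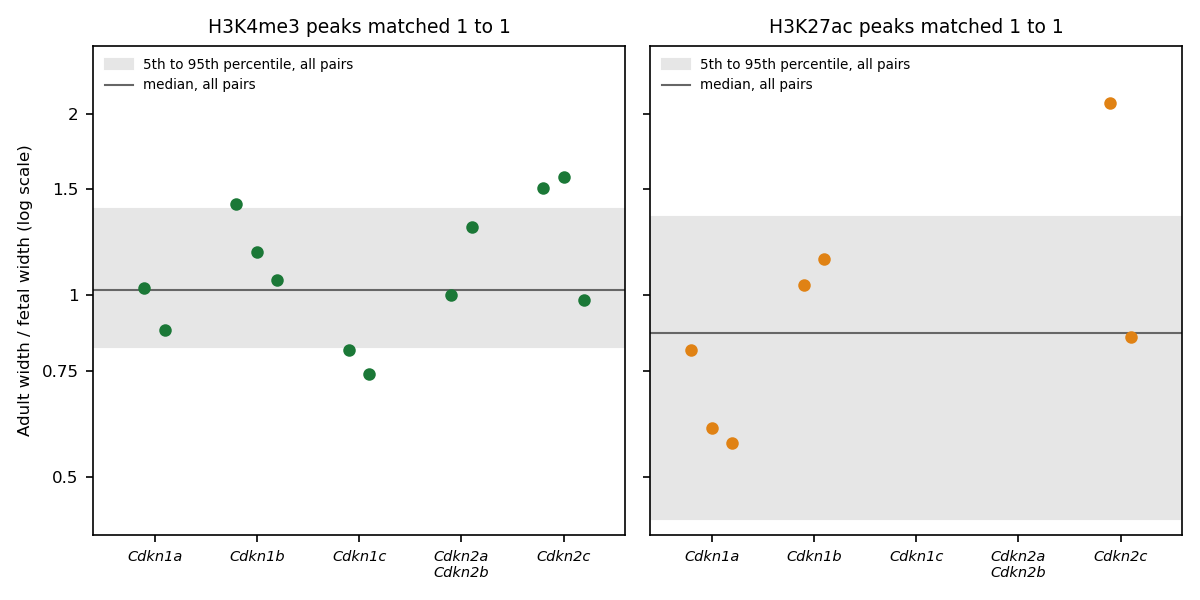
Adult width over fetal width (vertical axis, log scale) of each H3K4me3 and H3K27ac peak matched 1 to 1 between stages, 1 point per pair, by window. The grey band is the 5th to 95th percentile and the line the median of all pairs in the lists, and the points above the band were 2 H3K4me3 pairs at Cdkn2c, 1 at Cdkn1b and 1 H3K27ac pair at Cdkn2c.

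Of the 49 fetal H3K4me1 peaks of the windows, 22 lay on H3K4me3, against 27.7% of all fetal H3K4me1 peaks, and 25 lay on H3K27ac, against 41.4%. On H3K27me3 lay 15, against 9.26%, and 13 lay on none of the other 3 marks, against 47.4%. The windows were placed on genes, while the list spans the genome, so these shares are a background and not a matched comparison. Widths ran from 229 to 1481 bp with a median of 409.0 bp, close to the 429.0 bp of the whole list. At Cdkn1a 14 of 16 lay on H3K27ac, at Cdkn2a and Cdkn2b 5 of 5 on H3K27me3, and at Cdkn1c 9 of 15 on none of these marks.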

How the data were processed

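H3K4me3, H3K27ac, H3K4me1, H3K27me3 and input were profiled by single-end ChIP-seq at both stages, with libraries from a ThruPLEX kit, per the labels. The genome build mm9 and the aligner Bowtie2 2.2.2 are named in the submitters' processing notes. The 8 deposited lists give the position, name and score of each peak, and names begin with MACS, per the deposited lists. The score is the authors' own value without a stated unit. Caller settings, the control and read depth are not given in the sources used here. Each list was taken as 1 call on pooled replicates because its name says combined. Inputs were not analysed here, and no pairing or replicate error could be computed.

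Peaks on placed chromosomes were kept, and overlaps needed at least 1 bp. Covered length was cut at the window ends. Backgrounds were equal tiles of the placed chromosomes or whole lists. A 1 to 1 pair was a fetal and an adult peak that overlapped each other and no other peak of that mark. Overlap counting was tested on simulated data: all 100 planted overlaps were recovered in each of 8 lists of 200 peaks. Named genes were all 6 of the rule. Gene order came from RefSeq GRCm38.p6, and other G1 genes and cell type markers were not used here, for lack of mm9 positions in the sources used here. Genes, windows and lists were chosen with earlier results of these data known. Matched width ratios, adult cover by width class, gaps and 10-kb steps were added after the values were seen. Calculations used Python 3.11.15 with numpy 2.4.6 and pandas 2.3.3, and plots matplotlib 3.10.9.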

Additional observations from a re-analysis of the deposited data

How the results depend on the processing

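No paired analysis was possible because the lists hold both replicates of a group together, which also left none to omit. Of 174 comparisons of a value with its alternative, 120 stayed within 1.5 times with the same sign, 52 moved further and 2 reversed; the cause was not tested. With only peaks at or above the median score of their list, windows with a peak went to 3 fetal and 3 adult for H3K4me3, 1 adult for H3K4me1 and 2 adult for H3K27me3. Peaks went to 5 fetal and 5 adult for H3K4me3, 5 adult for H3K27ac, 23 fetal and 1 adult for H3K4me1, and 32 adult for H3K27me3. Covered length went to 14485 bp fetal and 16492 bp adult for H3K4me3, 15750 bp adult for H3K27ac and 14841 bp fetal for H3K4me1. Peaks overlapping the other stage went to 5 fetal and 5 adult for H3K4me3, for H3K27ac to 5 and 4, and for H3K27me3 to 2 and 32. Bivalent H3K4me3 peaks went to 2 fetal and 0 adult, and acetylated ones to 4 and 5. Fetal minus adult H3K27ac cover at Cdkn1b reversed to 631 bp. With equal numbers of top-scoring peaks, fetal H3K4me1 went to 2 windows, 3 peaks and 4084 bp, and fetal minus adult H3K4me1 cover at Cdkn1c reversed to -172 bp. With peaks joined within 1 kb, fetal H3K4me1 gave 23 peaks and adult H3K27me3 6 peaks over 44697 bp. With 50% of a peak to be covered, 0 fetal H3K4me1 and 1 fetal H3K27me3 peaks overlapped the other stage, and 2 adult H3K4me3 peaks were bivalent. Windows widened by 10 kb on each side held 10 fetal H3K27me3 peaks. Depth is unknown, so absence from a list is not absence of a mark.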
